A study of Mus musculus with 6 samples.

Results

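The enzymes that build and break down heme were examined in mouse liver, in 9 genes taken in pathway order: Alas1, Alad, Uros, Urod, Cpox, Ppox and Fech for synthesis, then Hmox1 and Blvrb for breakdown. Every probe set annotated to exactly 1 of these symbols was taken, which gave 20 probe sets of the 45101 on the array. The genes were chosen with the isolated against control values of these data already in view, so their values in that contrast are a description and carry no test. Of the 20 probe sets, 16 passed a filter on low signal and 4 did not, and each of the 9 genes kept at least 1. The isolated livers were those of male BALB/c mice aged 10 weeks that had lived singly for 30 days, with 3 arrays. The control livers were those of control males of the same strain and age, also with 3 arrays. Mice were 4 weeks old at the start, lived 5 to a cage and acclimatised for 10 days. The isolated mice then had 1 cage each, little bedding and a foam box around the cages. No genetic change or drug is named for either group. Whether the 3 arrays of a group stand for 3 different mice is not stated in the labels, so p-values measure the spread between samples, which may be technical in part.

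Heme synthesis starts in the mitochondrion, where Alas1 joins glycine to succinyl-CoA, and this step sets the rate in liver. Alad then makes porphobilinogen in the cytosol, Uros and Urod act on the ring as it closes and is trimmed, and Cpox, Ppox and Fech finish it and insert iron back in the mitochondrion. Most heme made in hepatocytes goes into cytochromes P450. Hmox1 opens spent heme to biliverdin with release of iron and carbon monoxide, and biliverdin reductases reduce biliverdin. Blvra and Blvrb are named as biliverdin reductases, and their activity was not measured.

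Hepatocyte transcripts were abundant on all arrays, with Alb at 10928, 9947 and 10499 in isolated livers against 10836, 10200 and 10948 in control livers. Of 10 hepatocyte markers, 8 were tested, with 0 called by limma and 1, Tat, at an unadjusted p under 0.05, where 11.4% of all tested probe sets had one. The log2 difference was 0.50 for Tat and 0.53 for Ass1, which was dimmer, and the other 6 lay from -0.09 to 0.02. The median signal ran from 18.4 to 21.9 on isolated arrays and from 18.4 to 22.1 on control arrays. The 3′ to 5′ signal ratio of Gapdh ran from 0.689 to 0.695 on isolated arrays and from 0.692 to 0.719 on control arrays. That of Actb ran from 1.99 to 2.35 on isolated arrays, highest on replicate 2, and from 2.14 to 2.32 on control arrays. Over all 22519 tested probe sets the median log2 difference, isolated minus control, was 0.035. In bulk liver, fewer cells of a type and less RNA per cell cannot be told apart. Isolated replicates 2 and 3 carried more of some fat cell transcripts. Adipoq read 3.78, 59.5 and 54.8 on isolated replicates 1, 2 and 3, against 4.38, 8.48 and 15.6 in controls. Of 8 fat cell markers, 6 had a probe set with 1 symbol and 2 were tested. By limma 0 of the 2 were called and 1, Fabp4, had an unadjusted p under 0.05. Over all tested probe sets, 11.4% had such a p, 0.773% were called higher and 0.857% lower. The summed signal of the 6 was 284, 472 and 544 on isolated arrays, against 203, 295 and 248 on control arrays. Fabp4 was the largest part of it, at 203, 300 and 404 on isolated arrays. Retn read 2.65, 20 and 42.2 on isolated arrays and at most 3.88 on control arrays. Lipe, the other tested marker, read 61.3, 76.7 and 38.6 on isolated arrays, against 63.4, 61.7 and 66.2 in controls. Cidea lay at most at 14.6 on isolated and 18.3 on control arrays. Lep lay at most at 3.08 on isolated and 3.3 on control arrays.

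Alad stood out among these genes for the disagreement between its probe sets. RefSeq gives it more than one transcription start, and the windows of 300 bases around both starts are shown for that reason, since the results turn on Alad. They come from the RefSeq promoter table on build GRCm38.p6, minus strand, and are written 5′ to 3′. Capitals mark CACGTG, a palindromic E-box bound by helix-loop-helix transcription factors. Window 1 lies at chr4:62520014-62520313 and window 2 at chr4:62519860-62520159, and they share 146 bases.
Alad window 1: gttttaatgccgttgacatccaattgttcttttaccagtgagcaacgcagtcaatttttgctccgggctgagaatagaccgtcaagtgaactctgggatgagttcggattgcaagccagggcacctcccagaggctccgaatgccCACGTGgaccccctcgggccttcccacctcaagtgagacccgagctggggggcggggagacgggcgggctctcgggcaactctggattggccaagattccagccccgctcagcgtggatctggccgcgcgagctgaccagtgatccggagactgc
Alad window 2: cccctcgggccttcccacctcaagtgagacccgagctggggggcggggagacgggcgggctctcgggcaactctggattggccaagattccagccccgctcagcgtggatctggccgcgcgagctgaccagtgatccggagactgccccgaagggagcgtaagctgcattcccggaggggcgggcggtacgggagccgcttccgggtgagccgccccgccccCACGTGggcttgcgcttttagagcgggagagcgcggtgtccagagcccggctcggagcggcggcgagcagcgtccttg
Each window held 1 CACGTG, 105 bases before the annotated start in window 1 and 28 bases before it in window 2. Of the 32851 windows of this length in the table, 7.15% held that motif. The Sp1-type GC box CCGCCC, found in 35.7% of all windows, was counted 2 times in window 1 and 6 times in window 2, with some of these matches overlapping one another. CCAAT, found in 37.4% of all windows, was counted 2 times in window 1 and 1 time in window 2. On either strand, 0 matches to GATA (in 57.9% of all windows), TATAAA (13.6%) or TGANNNNGC (41.3%) lay in these windows. Of the 9 genes, 7 had at least 1 window in the table, 11 windows in all. CACGTG was in 4 of the 11, both of Alad, 1 of Uros and 1 of Urod. The array does not tell which start a transcript used.

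The Alad probe set 1457306_at read far higher in isolated livers, with signals of 364, 883 and 581 in isolated replicates 1, 2 and 3, against 105, 80.6 and 114 in control livers. All 3 isolated arrays lay above every control array, and the lowest isolated signal was over 3 times the highest control signal. The group means were 609 ± 261 in isolated livers and 99.6 ± 17.1 in control livers (SD, n = 3 each). The log2 difference was 2.51 ± 0.24 (SE), or 5.7-fold, on the log2(signal + 2) scale. It ranked at 23 by absolute size among the 22519 tested probe sets. The other Alad probe set, 1424877_a_at, read 2271, 1869 and 2380 in isolated livers, against 1921, 1992 and 1940 in control livers. Here the groups overlapped, since isolated replicate 2 was the lowest of all arrays, and the log2 difference was 0.15 ± 0.13 (SE).

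Log2 ratios within an array were taken on the log2(signal + 2) scale, so scaling an array by a constant factor changes them slightly. The log2 ratio of 1457306_at to 1424877_a_at was -2.64, -1.08 and -2.03 on isolated arrays, against -4.17, -4.59 and -4.07 on control arrays. The groups did not overlap, and the ratio differed by 2.36 between them. With 16 added to the signal in place of 2 it differed by 2.21, and with 0.5 by 2.38. Isolated replicate 2 had the highest signal of 1457306_at and the lowest of 1424877_a_at. Of 4885 genes with at least 2 tested probe sets, 2 had probe sets whose log2 differences lay this far apart or farther. Alad was 1 of them, and the median gap was 0.26. This standing of Alad carries no test, since the genes were chosen with this contrast in view. Among the other heme enzymes with several tested probe sets, the gap was 0.35 for Alas1, 0.22 for Urod, 0.16 for Cpox and 0.08 for Fech. The annotation ties the Alad probe sets to different sequence records, and where each lies on the gene was not analysed here. The signal of 1457306_at followed the order of the Adipoq signal on the isolated arrays. Adipoq was below the filter and read 59.5 and 54.8 on isolated replicates 2 and 3. Other fat cell markers had other orders, with Fabp4 and Retn highest on isolated replicate 3 and Lipe lowest there. The part of fat cell RNA in 1457306_at was not tested. On isolated replicate 1 Adipoq was at 3.78, while Fabp4 was at 203, against 117, 202 and 157 on control arrays. A fit with isolated replicate 1 as the only isolated array, chosen after seeing the data, gave a log2 difference of 1.86. That value rests on 1 isolated array and is no test of the part of fat cell RNA.

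**Figure D1:**
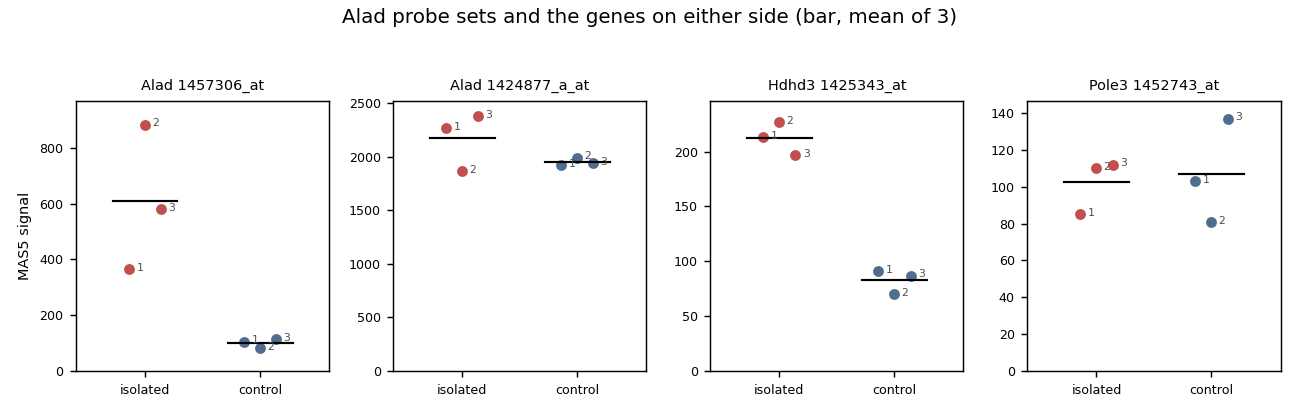
MAS5 signal on a linear axis (numbered points, arrays; bar, mean of 3) of both Alad probe sets and of the genes on either side of Alad, with isolated livers left and control livers right. Alad 1457306_at and Hdhd3 show isolated arrays above every control, while Alad 1424877_a_at and Pole3 overlap.

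The genes next to Alad were looked up after its values were seen. Hdhd3, which encodes a haloacid dehalogenase-like hydrolase domain protein, lies beyond the 3′ end of Alad on the same strand, as the next protein-coding gene in RefSeq. Its single probe set read 213, 227 and 197 in isolated livers, against 90.9, 70.1 and 86.9 in control livers. The groups did not overlap, and Hdhd3 rose 2.54-fold, with a log2 difference of 1.35 ± 0.19 (SE) and a limma adjusted p of 0.00028. Isolated replicate 2 was highest on both, while replicates 1 and 3 stood in the opposite order. Pole3, a DNA polymerase epsilon subunit gene on the other side of Alad, had 3 tested probe sets with overlapping groups. Their log2 differences were -0.16, -0.04 and 0.13, with limma adjusted p values of 0.868 to 0.975. Whether 1457306_at and the Hdhd3 probe set share a transcript was not tested.

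The neighbouring steps did not share the difference of 1457306_at. Alas1, the step before Alad, read 7250, 4044 and 6307 in isolated livers on 1424126_at, against 6304, 5813 and 6734 in control livers. The groups overlapped, with isolated replicate 1 the highest and isolated replicate 2 the lowest of all arrays. The log2 difference was -0.14 ± 0.16 (SE), or 0.11 without isolated replicate 2. On the other Alas1 probe set, 1455282_x_at, isolated livers read 767, 363 and 583 and control livers 666, 788 and 861. Its log2 difference was -0.49 ± 0.21 (SE), the lowest of the 16 probe sets, and -0.20 without isolated replicate 2. The x in its name marks a probe set with some probes that match other sequences too.

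The log2 ratio of Alad 1457306_at to Alas1 1424126_at was -4.31, -2.19 and -3.44 on isolated arrays, against -5.89, -6.14 and -5.86 on control arrays. These did not overlap, and the ratio was higher by 2.65 in isolated livers. The same ratio for Alad 1424877_a_at was -1.67, -1.11 and -1.41 on isolated arrays, against -1.71, -1.54 and -1.79 on control arrays, which overlapped. Uros, the uroporphyrinogen III synthase and the nearest later step measured, read 282, 250 and 326 in isolated livers on 1423482_at, against 262, 249 and 306 in control livers. The groups overlapped and the log2 difference was 0.07 ± 0.18 (SE). Against Uros, Alad 1457306_at had a log2 ratio higher by 2.44 in isolated livers, and Alad 1424877_a_at one higher by 0.08.

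The later synthesis steps showed small differences with overlapping groups. Urod, which removes carboxyl groups from the ring, read 270, 237 and 288 in isolated livers on 1417206_at, against 293, 296 and 287 in control livers. Isolated replicate 3 fell among the controls. Its log2 difference was -0.14 ± 0.17 (SE), and that of 1443849_x_at was 0.07 ± 0.14.

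Cpox, the coproporphyrinogen oxidase, had log2 differences below 0 on all 3 probe sets, at -0.20 ± 0.16, -0.30 ± 0.18 and -0.36 ± 0.33 (SE). On 1422493_at it read 251, 187 and 230 in isolated livers, against 229, 304 and 294 in control livers, with control replicate 1 among the isolated values. On 1422492_at it read 748, 671 and 886 in isolated livers, against 795, 821 and 1034 in control livers, and isolated replicate 3 lay above 2 of the controls. The dim 1440747_at ran from 17 to 29.4 in isolated livers and from 28.8 to 31.5 in control livers.

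Ppox, the protoporphyrinogen oxidase, had the next highest log2 difference after Alad 1457306_at, at 0.42 ± 0.25 (SE). Its signals on 1416618_at were 65.8, 47 and 97.1 in isolated livers, against 50.7, 46.8 and 51.4 in control livers. The groups overlapped through isolated replicate 2, the isolated spread was 25.3 (SD) against 2.46 in controls, and without isolated replicate 3 the difference was 0.16. Fech, the ferrochelatase that inserts iron, was the steadiest step, with log2 differences of -0.04 ± 0.17, 0.03 ± 0.15 and -0.05 ± 0.16 (SE). On 1449181_at it read 1076, 866 and 1259 in isolated livers, against 1136, 972 and 1186 in control livers, so the isolated arrays spanned the controls. The 4 probe sets below the filter, 1 of Uros, 2 of Ppox and 1 of Fech, read at most 18.4 on isolated arrays and at most 19.2 on control arrays, with overlapping groups.

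**Figure D2:**
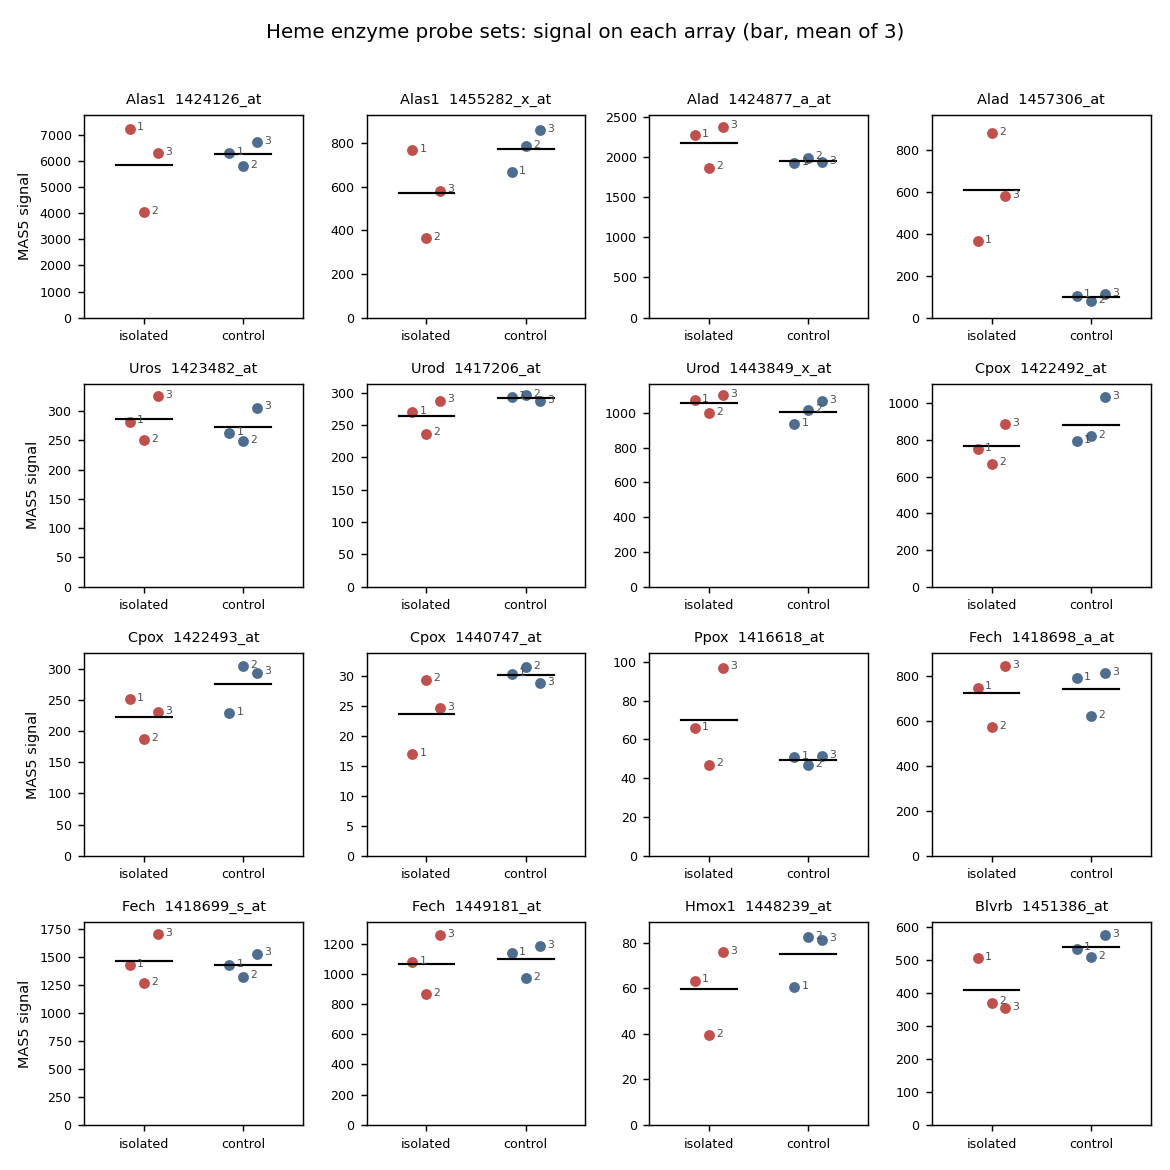
MAS5 signal on linear axes from 0 for the 16 heme enzyme probe sets that passed the filter (numbered points, arrays; bar, mean of 3), isolated livers left and control livers right. Groups separate on Alad 1457306_at, with isolated livers higher, and on Blvrb, with isolated livers lower.

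Of the breakdown enzymes, Blvrb, which is also known as flavin reductase, was lower on every isolated array. It read 505, 370 and 352 in isolated livers, against 533, 508 and 573 in control livers. The groups did not overlap, but isolated replicate 1 lay only just under the lowest control. The log2 difference was -0.41 ± 0.17 (SE), and -0.09 with isolated replicate 1 as the only isolated array. Blvra, which is outside the 9 genes, had overlapping groups and a log2 difference of 0.06 ± 0.18 (SE). Hmox1, the inducible heme oxygenase, read 63.4, 39.5 and 75.8 in isolated livers, against 60.7, 82.7 and 81.4 in control livers. These overlapped, with a log2 difference of -0.36 ± 0.25 (SE), or -0.10 without isolated replicate 2.

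Macrophages, which recycle heme from red cells, also express Hmox1 and Blvrb. Of 13 macrophage markers, 11 were tested and 0 were called by limma, also at an unadjusted p under 0.05. Over all tested probe sets, 11.4% had such a p, 0.773% were called higher and 0.857% lower. Clec4f, a Kupffer cell receptor, read 388, 287 and 450 in isolated livers, against 404, 407 and 463 in control livers. Summed over the 13, the signal ran from 2341 to 3192 on isolated arrays and from 2806 to 3271 on control arrays, and isolated replicate 2 was lowest. Its part in the Hmox1 and Blvrb values was not tested.

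Over the 16 probe sets, 6 log2 differences lay above 0 and 10 below, with a median of -0.10. By the rule of a limma adjusted p under 0.05 over all tested probe sets, 1 was called higher, Alad 1457306_at, where 0.773% of all tested probe sets were called higher. By limma 0 of the 16 were called lower, where 0.857% of all were, and 2 had an unadjusted p under 0.05 with a log2 difference below 0, as did 4.53% of all. All isolated arrays lay above every control on 1 of the 16, as on 9.62% of all tested probe sets. They lay below every control on 1, Blvrb, as on 5.79% of all. Apart from that Alad probe set, the other 15 lay within 0.5 of 0 on the log2 scale, as did 87% of all tested probe sets. Nothing is read from these counts, since the genes were chosen on this contrast. Isolated replicate 2 gave the lowest of the 6 signals on 10 of the 16 probe sets, and on 28.8% of all tested probe sets.

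**Figure D3:**
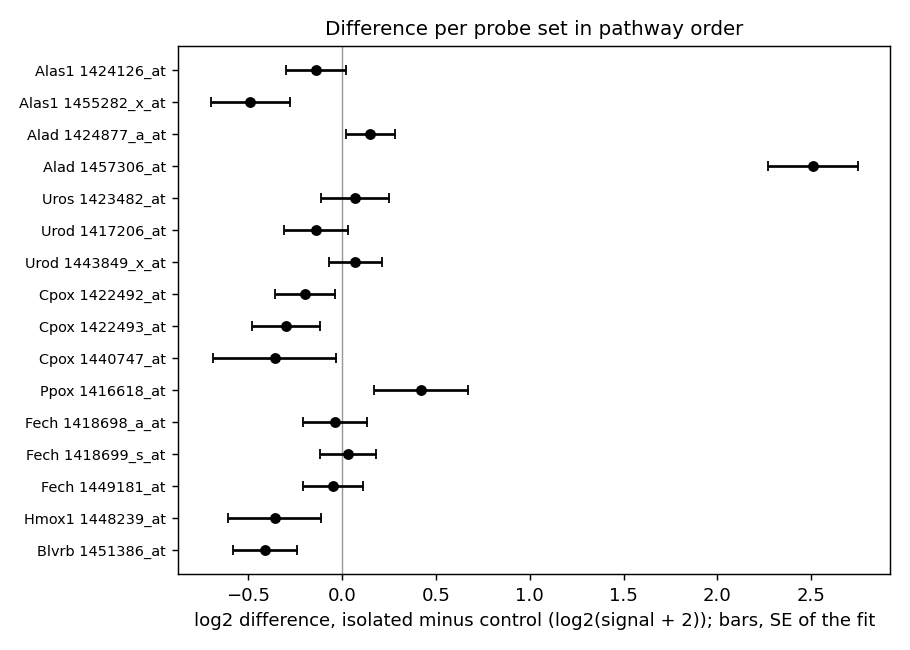
Log2 difference, isolated minus control, on the log2(signal + 2) scale for the 16 heme enzyme probe sets in pathway order (points, fitted difference; bars, SE of the fit). Alad 1457306_at stands at 2.51, and the other 15 run from -0.49 to 0.42.

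Genes that feed, regulate or use this pathway were taken from 5 lists of 82 genes, of which 73 were tested through the probe set with the highest mean. In all, 1 gene rose and 4 fell, where 0.773% of all tested probe sets were called higher and 0.857% lower. These calls were on regulators and on enzymes that carry heme. The lists were chosen with earlier results of these data known, so these counts and the limma p-values below are a description.

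Of 21 regulators of Alas1, Hmox1 and heme sensing, 3 fell, 0 rose and 18 did not pass. The median log2 difference was -0.07, and 8 had an unadjusted p under 0.05, where 11.4% of all tested probe sets had one. Bach1, a heme-binding repressor of Hmox1, read 500, 418 and 635 in isolated livers, against 798, 904 and 1093 in control livers. All isolated arrays lay below every control, and Bach1 fell 1.81-fold, with a log2 difference of -0.85 ± 0.17 (SE) and a limma adjusted p of 0.0114. Its other probe set had a log2 difference of -0.77 and a limma adjusted p of 0.281, with overlapping groups. The call on Bach1 was lost without control replicate 3 (limma adjusted p 0.0791) and without the intensity trend (0.205). Maff, a small Maf protein of the kind that pairs with Bach1, read 3.45, 13.2 and 30.4 in isolated livers, against 49.7, 62.4 and 65.8 in control livers. The groups did not overlap, and Maff fell 4.39-fold (limma adjusted p 0.0158). This fold is approximate, as its isolated mean of 15.7 is below 18, the signal that matches the filter. The other small Maf genes listed, Mafk and Mafg, had log2 differences of 0.88 and 0.22, with overlapping groups. Their limma adjusted p values were 0.459 and 0.712.

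The log2 difference of Maff, -2.13 over all arrays, was -2.74 without isolated replicate 3 and -1.46 without isolated replicate 1, and -1.33 with a pseudocount of 16. Its call was lost without control replicate 3 (limma adjusted p 0.116), and in 5 of the fits on all arrays (0.053 to 0.199). Egr1, an immediate early transcription factor, read 18.7, 44.5 and 38 in isolated livers, against 95.7, 153 and 112 in control livers. It fell 3.56-fold with no overlap (limma adjusted p 0.000693), and the call was lost without the intensity trend (0.086). With isolated replicate 1 as the only isolated array its log2 difference was -2.54, against -1.83 over all arrays.

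Clpx, the unfoldase of the mitochondrial protease that acts on Alas1 protein, read 608, 660 and 604 in isolated livers, against 714, 967 and 934 in control livers. All isolated arrays lay below every control, but the log2 difference of -0.47 ± 0.16 (SE) did not pass (limma adjusted p 0.177). Its other probe set, named after its values were seen, read 230, 211 and 142 in isolated livers, against 293, 651 and 507 in control livers. That probe set fell 2.4-fold (limma adjusted p 0.00651), and its call was lost without control replicate 3 (0.0594), with quantile normalization (0.0513), with a robust trend (0.0905) and without the trend (0.199). Nr1i2, the xenobiotic receptor that can induce Alas1, read 129, 157 and 132 in isolated livers, against 183, 202 and 200 in control livers. The groups did not overlap, and the log2 difference was -0.49 ± 0.18 (SE) with a limma adjusted p of 0.25. Nr1d2, a heme-binding nuclear receptor of the clock, had a log2 difference of -0.52 ± 0.18 (SE) and a limma adjusted p of 0.186, or 0.0205 without isolated replicate 3 and 0.0295 with the replicate number as a block.

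**Figure D4:**
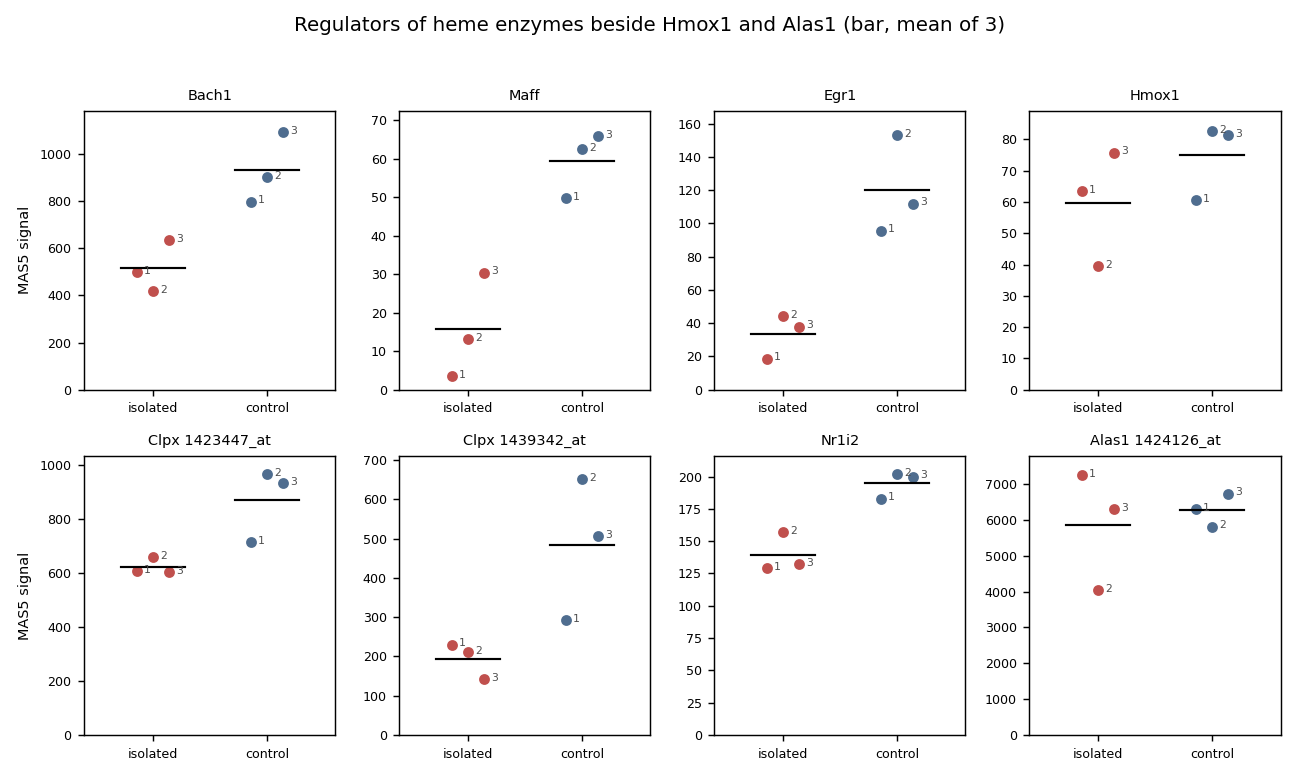
MAS5 signal on linear axes from 0 (numbered points, arrays; bar, mean of 3) of 5 regulators of heme enzymes, Clpx with both probe sets, beside Hmox1 and Alas1 1424126_at, isolated livers left and control livers right. Isolated arrays lie below every control for Bach1, Maff, Egr1, Clpx and Nr1i2, while Hmox1 and Alas1 overlap.

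Of 17 tested enzymes that carry heme, Cyp7a1 rose, Cyp4a14 fell and 15 did not pass, with a median log2 difference of 0.03. Of the 17, 3 had an unadjusted p under 0.05, where 11.4% of all tested probe sets had one. Cyp7a1, which opens bile acid synthesis, read 4020, 1958 and 4091 in isolated livers, against 1032, 349 and 529 in control livers. It rose 5.51-fold without overlap (limma adjusted p 3.23e-05), a call lost with a robust trend (0.2) and without the trend (0.0797). Cyp4a14, a fatty acid hydroxylase, read 54.7, 74.7 and 26.7 in isolated livers, against 80.6, 196 and 152 in control livers. It fell 2.72-fold (limma adjusted p 0.0195), a call lost without isolated replicate 3, control replicate 2 or control replicate 3 (0.0694 to 0.127) and in 5 of the fits on all arrays (0.0878 to 0.29).

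Of the others on this list, named after their values were seen, Tdo2, the tryptophan dioxygenase, had a log2 difference of -0.10, catalase (Cat) one of 0.01, and Cyp2e1 and Cyp3a11 ones of -0.08 and 0.01. The 3 uncalled genes of this list with the smallest p were Suox, Cyb5b and Cyp51. Suox, the sulfite oxidase, had a log2 difference of 0.37 with a limma adjusted p of 0.407. Cyb5b, a mitochondrial cytochrome b5, had one of 0.21 (limma adjusted p 0.65) and Cyp51, a sterol demethylase, one of -0.26 (0.736).

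Other pathway enzymes gave 0 limma calls of 6 tested, with a median log2 difference of 0.14. Of the 6, 1 had an unadjusted p under 0.05, where 11.4% of all tested probe sets had one. Hccs, which attaches heme to cytochrome c, read 266, 287 and 314 in isolated livers, against 201, 173 and 219 in control livers. The groups did not overlap, and the log2 difference of 0.55 ± 0.18 (SE) had a limma adjusted p of 0.149. Cox10 and Cox15, which make heme a, had log2 differences of 0.31 (limma adjusted p 0.646) and 0.22 (0.738). Alas2, the erythroid form of the first enzyme, read 993, 584 and 977 in isolated livers, against 855, 768 and 1005 in control livers, which overlapped. Of 16 erythroid markers, 10 had a probe set with 1 symbol and 3 of these were tested. By limma 0 of the 3 were called, and 0 had an unadjusted p under 0.05, where 11.4% of all tested probe sets had one. Summed over the 10, the signal ran from 139 to 176 on isolated arrays and from 173 to 231 on control arrays. The part of red cell precursors in the Alas2 values was not tested.

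Heme and porphyrin transport and binding gave 0 limma calls of 20 tested. Of the 20, 0 had an unadjusted p under 0.05, where 11.4% of all tested probe sets had one. Their log2 differences lay above 0 for 11 and below for 9, with a median of 0.02. Hp, which binds free hemoglobin, read 6090, 5480 and 6688 in isolated livers, against 6623, 7101 and 7361 in control livers, and overlapped through isolated replicate 3. Its log2 difference was -0.21 ± 0.12 (SE) with a limma adjusted p of 0.537. The mitoferrins Slc25a28 and Slc25a37, which bring iron into mitochondria, had log2 differences of 0.33 (limma adjusted p 0.591) and 0.28 (0.603). Slc25a37 read 296, 284 and 294 in isolated livers, against 218, 236 and 269 in control livers. Substrate supply gave 0 limma calls of 9 tested, with 8 log2 differences above 0 and a median of 0.13. Of the 9, 0 had an unadjusted p under 0.05, where 11.4% of all tested probe sets had one. The 3 with the smallest p were the glycine decarboxylase Gldc, at 0.33 (limma adjusted p 0.532), Shmt2, at 0.18 (0.767), and Dld, at 0.17 (0.779).

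The genes most like Alad in pattern were found by the root mean square difference of mean-centred log2 values over the 6 arrays. For 1424877_a_at they were Ptpn2, Fkbp7, Tpp2, Masp1 and Ociad2, at 0.028 to 0.033. For 1457306_at, added after the data were seen, they were Angptl8, Mid1ip1, Tsc22d1, Ppp1r3c and Klhl25, at 0.322 to 0.540. Angptl8, the nearest, read 376, 1186 and 818 in isolated livers, against 140, 160 and 113 in control livers. Ppp1r3c, a glycogen-targeting phosphatase subunit, read 229, 633 and 487 in isolated livers, against 140, 136 and 152 in control livers. Isolated replicate 2 was highest for 4 of these 5 genes and replicate 3 for Tsc22d1, and an order shared with Alad is partly set by how the genes were chosen.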

How the data were processed

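Liver RNA was measured on Affymetrix mouse arrays, 1 per sample, with cRNA made from 2 µg of total RNA per the labels' protocols. The deposited intensity values are linear MAS5 signals per the submitters' processing notes. Their scaling target and detection calls are not known here.

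After 64 control probe sets were left out, log2(signal + 2) was taken, and the 22519 probe sets in the upper 50% by mean over the 6 arrays (at least 4.32 on that scale) were tested. Low signals are noisy, and the pseudocount shrinks their differences. A model with 2 groups was fitted in limma 3.58.1 (R 4.3.3), with eBayes and an intensity trend (prior degrees of freedom 16.1, residual 4). Tests were two-sided, and a call needed a Benjamini-Hochberg adjusted p under 0.05, adjusted over all probe sets tested. The procedure was tested on simulated data. The number of arrays limits the precision.

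Symbols came from the platform annotation, and all 9 genes matched RefSeq (GRCm38.p6). Genes and lists were chosen with earlier results of these data known. Named genes were all probe sets of the 9, each called gene of the other lists with the 3 uncalled ones of smallest p per list, and the 5 nearest in pattern to the Alad probe set with the highest mean; other names were added after values were seen. Alternatives covered the pseudocount, filter, scaling, variance model, array weights, replicate block and each array left out. Figures used matplotlib 3.10.9.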

Additional observations from a re-analysis of the deposited data

How the results depend on the processing

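Alad 1457306_at was called higher under all 16 alternatives, with log2 differences of 2.20 to 2.83, and 0 other heme enzyme probe sets were called under any of them. With each array left out, its log2 ratio to the other Alad probe set differed between groups by 1.94 to 2.72, that to Alas1 by 2.09 to 3.15 and that to Uros by 2.04 to 2.76. Without isolated replicates 2 and 3, an alternative chosen after seeing the data, these were 1.64, 1.65 and 1.81; only 1 isolated array is left there, and its spread is taken from the controls. Over all tested probe sets, higher calls (174) numbered 81 without a filter, 264 with the upper 30%, 15 without the intensity trend, 90 without isolated replicates 2 and 3, and 97 to 200 with 1 array left out. Lower calls (193) numbered 101 without a filter, 16 without the trend, and 82 (without control replicate 3) to 246 with 1 array left out. In the other heme lists, the 1 higher call was 0 without the trend and with a robust trend, and 2, both of Cyp7a1, with every probe set counted. The 4 lower calls were 5 with every probe set counted, Clpx added, 2 without a filter, with quantile normalization, with median centring and with a robust trend, 0 without the trend, and 1 to 4 with 1 array left out. The deviations of same-numbered arrays from their group means had correlations of 0.01, 0.04 and 0.00 for numbers 1, 2 and 3, so the numbers were not taken to pair arrays. With the replicate number as a block, calls numbered 265 higher and 248 lower, and the heme lists held 1 higher and 5 lower. Hdhd3 was called under every alternative run, at 1.22 to 1.42. The causes were not tested.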
